A study of Gossypium hirsutum with 2 samples.

Results

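AP2/ERF transcription factors were described in developing seed tissue of upland cotton, in 177 assembled transcript sequences (unigenes) out of 136262. Members were found by annotation text: any unigene whose text speaks of an ethylene-responsive element or transcription factor, an ethylene response factor, AP2, AINTEGUMENTA, an ERF domain or a dehydration-responsive element, leaving out AP2 adaptor complexes and clathrin. That search returned 192 unigenes. In 15 of them the letters AP2 stood only inside another protein's name (SNAP25, PAP2, PAP26 or HAP2), and these were set aside. They were SNARE, phosphatase and other proteins, of which 11 reached 1 RPKM in a library and 3 of those were at least 2-fold lower in FL ovule.

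The samples were ovule of the line XZ142FLM (FL ovule) and fiber of the cultivar Xuzhou142 (WT fiber), both Gossypium hirsutum at 10 days post anthesis, with 1 library each. XZ142FLM carries the genotype li3li3n2n2, and its seeds are labelled fuzzless and lintless; Xuzhou142 is labelled wild type with normal fiber growth. Tissue and genotype differ together, so they cannot be told apart, and with 1 library per group no test was possible and no replicate checks any difference. RNA editing, the stated aim of the series, was not analysed here.

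AP2/ERF proteins are plant transcription factors that share the AP2 DNA-binding domain. ERF proteins are known to bind the GCC box in promoters of ethylene-responsive and defence genes, and DREB proteins a related element in promoters of drought and cold genes, while proteins of the AP2 class, named after APETALA2 and AINTEGUMENTA of Arabidopsis, act in ovule, seed and meristem development. RAV proteins carry a B3 domain beside the AP2 domain. Ethylene itself is known to promote elongation of fiber cells, the single-celled hairs of the cotton seed coat, in cultured ovules.

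FL ovule had 53.4 M reads and WT fiber had 45.6 M reads, and 1 read on a unigene of 1 kb was worth 0.0187 RPKM in FL ovule and 0.0219 RPKM in WT fiber. RPKM is the read count divided by unigene length and library size. The 30 most-read unigenes took 38.5% of the reads in FL ovule and 21.1% in WT fiber, which enters the RPKM of every other unigene. A unigene was called measured at 1 RPKM or more in at least 1 library, and log2 ratios are log2((RPKM in FL ovule + 1) / (RPKM in WT fiber + 1)), which understates the change of low unigenes. Counts of unigenes past 2-fold or within it rest on these log2 ratios unless another setting is named. Over all 63258 measured unigenes the median log2 ratio was 0.39. It was 0.69 when library totals omitted the 30 most-read unigenes, 0.29 with upper quartile scaling, -0.18 with TMM scaling, -0.23 with a common RPKM sum and -0.28 with DESeq2 size factors. A scaling multiplies every ratio between the libraries by 1 factor, which lay between 0.611 (DESeq2 size factors) and 1.28 (library totals without those 30), so the direction of any summed level whose ratio lies between 0.780 and 1.64 turns under at least 1 scaling. A sum covers all unigenes of a list, measured or not, unless it is said to cover the measured ones. Folds given with an interval are ratios of RPKM with no pseudocount, and the interval is an exact (Clopper-Pearson) 95% interval from the read counts that covers counting error only.

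The tissue labels were checked against marker unigenes. Alpha expansin (Unigene0055966), a wall-loosening protein of growing fibers, had 7.32 RPKM in FL ovule and 6967 RPKM in WT fiber, and the fiber marker list summed to 5395 RPKM in FL ovule and 34027 RPKM in WT fiber. By count this list was even, with 48 of 150 measured unigenes at least 2-fold higher and 47 at least 2-fold lower in FL ovule and a median log2 ratio of 0.06, and its 10 most abundant unigenes held 47.8% of the sum in FL ovule and 72.7% of it in WT fiber. Some transcripts of the embryo were present in FL ovule and low in WT fiber. A leafy cotyledon1-like protein (Unigene0036895), a regulator of embryo development, had 15.5 RPKM in FL ovule and 0.336 RPKM in WT fiber. ABI3 (Unigene0139417), a regulator of seed maturation, had 5.08 RPKM in FL ovule and was at 0 reads in WT fiber. For LEC1, LEC2, ABI3, oleosin 1, vicilin and 2S albumin storage proteins, 16 unigenes were picked from the list after their values were seen. Their sum was 84.2 RPKM in FL ovule and 3.67 RPKM in WT fiber, and 9 of the 16 had no read in WT fiber. Because the pick followed the values, this lean to FL ovule is no check of the tissue labels. The pick left out other oleosin, vicilin and 2S albumin superfamily texts, which went both ways. Among these, Unigene0046567 (2S albumin superfamily) had 50.7 RPKM in FL ovule and 2.47 RPKM in WT fiber. An oleosin family unigene (Unigene0035516) had 7.02 RPKM in FL ovule and 36.1 RPKM in WT fiber. The full embryo list, which by its wording also took in broad families such as late embryogenesis abundant proteins, had 29 of 90 measured unigenes at least 2-fold higher and 17 at least 2-fold lower in FL ovule, with sums of 1353 RPKM in FL ovule and 1274 RPKM in WT fiber, and with DESeq2 size factors 21 were higher and 25 lower. Unigenes of dividing cells (histones, B-type cyclins, PCNA, minichromosome maintenance proteins) summed to 5271 RPKM in FL ovule and 1330 RPKM in WT fiber. Of 110 measured, 61 were at least 2-fold higher and 5 at least 2-fold lower in FL ovule (52 and 12 with DESeq2 size factors). Of 12 measured seed coat markers, 6 passed 2-fold toward FL ovule and none toward WT fiber (3 and 1 with DESeq2 size factors). These 12 summed to 402 RPKM in FL ovule and 173 RPKM in WT fiber. Green tissue markers had 16 of 78 measured unigenes at least 2-fold higher and 9 at least 2-fold lower in FL ovule (8 and 18 with DESeq2 size factors), while their sum was 760 RPKM in FL ovule and 1222 RPKM in WT fiber. The 1 endosperm unigene was not measured. These marker levels move with the same contrast as every AP2/ERF difference given here, and their part in those differences was not tested; in bulk RNA, fewer cells of a type and less RNA per cell cannot be told apart.

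More AP2/ERF unigenes were detected in FL ovule, the more deeply sequenced library, and the same held for all unigenes. Of the 177 members, 104 (58.8%) reached 1 RPKM in FL ovule and 70 (39.5%) did so in WT fiber, beside 42.0% of all unigenes in FL ovule and 29.3% of them in WT fiber. No read was found for 2 members (1.13%) in FL ovule and for 17 (9.60%) in WT fiber, beside 2.04% of all unigenes in FL ovule and 6.46% of them in WT fiber. The summed level was 1010 RPKM in FL ovule and 1049 RPKM in WT fiber, a ratio of 0.963; it was 0.63 with TMM scaling, 0.59 with DESeq2 size factors, 0.62 with a common RPKM sum and 1.23 when library totals omitted the 30 most-read unigenes.

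Of 112 measured members, 27 (24.1%) reached a 2-fold higher level in FL ovule, beside 15.3% of all measured unigenes, and 6 (5.36%) a 2-fold lower one, beside 10.5% of all measured unigenes. The other 79 lay within 2-fold on this scale with its pseudocount of 1. With a pseudocount of 0.1, 45 members (40.2%, beside 36.6% of all) were higher and 9 (8.04%, beside 14.5% of all) lower. The median log2 ratio of the members was 0.41, beside 0.39 for all measured unigenes. The quartiles of the members were -0.23 and 0.97, beside -0.28 and 0.80 for all measured unigenes. Members were found by annotation text, and the 41574 measured unigenes with any annotation had a lower median log2 ratio, 0.22. Of these annotated unigenes, 15.3% were at least 2-fold higher and 13.2% at least 2-fold lower in FL ovule. The split of the calls followed the scaling: FL ovule held 81.8% of the members' calls with RPKM as deposited, 77.4% with upper quartile scaling, 51.9% with a common RPKM sum, 50.0% with TMM scaling and 41.2% with DESeq2 size factors, while the same share over all measured unigenes was 59.3%, 52.3%, 25.7%, 27.4% and 23.3%. The share of members called higher in FL ovule was above that of all measured unigenes under each of these 5 scalings. It was also above when library totals omitted the 30 most-read unigenes, where 57 of 142 measured members were higher (40.1%, beside 28.4% of all) and 6 were lower. With ratios centred on the median of all measured unigenes, 13 members (11.6%, beside 6.10% of all) passed 2-fold toward FL ovule and 10 (8.93%, beside 17.1% of all) toward WT fiber. Many members share an annotation text. With 1 unigene per text, 9 of 48 measured members (18.8%) were higher and 4 (8.33%) lower, and their median log2 ratio was 0.13.

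Most of the higher members were low in WT fiber. A 2-fold ratio with a pseudocount of 1 cannot be reached below 1 RPKM, so without the filter the calls were the same 27 and 6, as shares of all 177 members 15.3% and 3.39%, beside 7.12% and 4.89% of all 136262 unigenes. Of the 112 measured members, 42 reached 1 RPKM only in FL ovule, and 20 of the 27 higher ones were among them. A member that passed only through the library where it is high leans that way by construction, which enters the medians and shares of measured members. Of the 62 members at 1 RPKM or more in both libraries, 7 passed 2-fold toward FL ovule and 3 toward WT fiber. Through WT fiber alone, 8 members passed the filter. The same splits over all unigenes are not given here, so these counts describe the members alone and do not set the family apart. At 5 RPKM or more in a library, 42 members remained, with 9 at least 2-fold higher and 4 at least 2-fold lower in FL ovule; among all unigenes at that level the shares were 18.1% higher and 22.0% lower. The 65 members that were not measured had a median of 0.576 RPKM in FL ovule and 0.178 RPKM in WT fiber, and they were short, with a median length of 496 bases against 866 bases for the measured ones.

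Other transcription factor families showed shares of the same order. Of 241 MYB unigenes, 61 (25.3%) passed 2-fold toward FL ovule and 26 (10.8%) toward WT fiber. The same counts were, for WRKY unigenes, 20 of 91 (22.0%) and 8 (8.79%), for NAC unigenes 27 of 112 (24.1%) and 10 (8.93%), and for bHLH unigenes 40 of 182 (22.0%) and 16 (8.79%). With RPKM as deposited, the AP2/ERF share of higher calls lay inside the range of these 4 families. Its share of lower calls lay below that range. This place did not hold with DESeq2 size factors, where 20 of 103 measured AP2/ERF unigenes (19.4%) were lower. The counts of lower unigenes there were 39 of 233 for MYB, 11 of 86 for WRKY, 20 of 108 for NAC and 27 of 169 for bHLH. Differences between families were not tested.

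**Figure D1:**
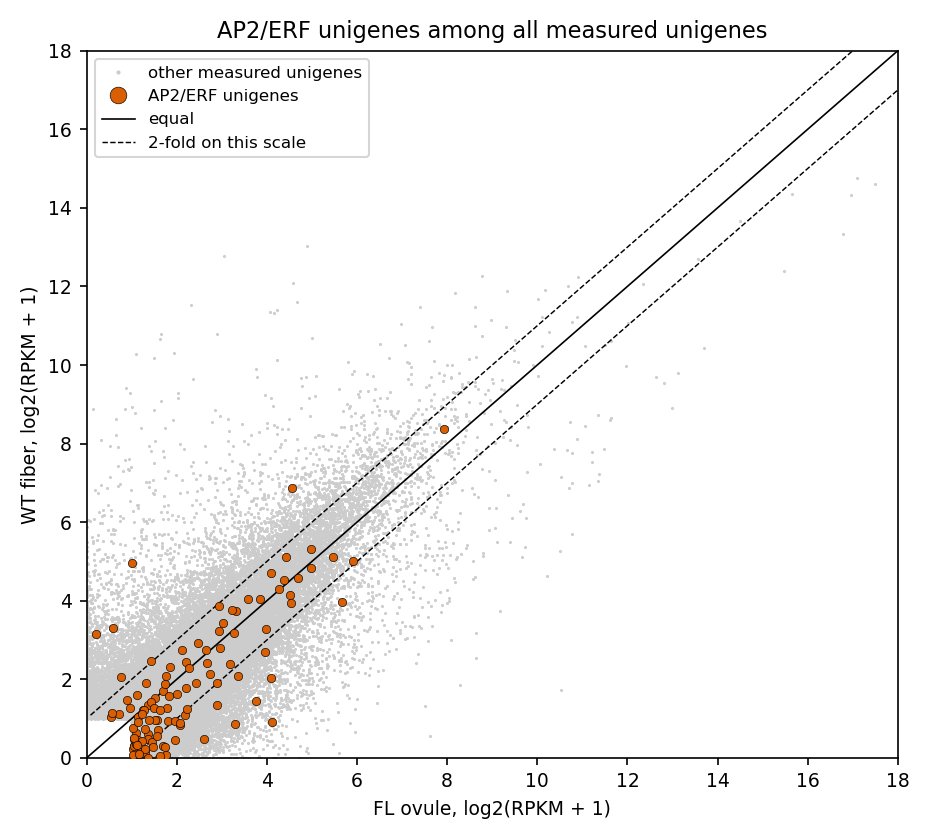
Level of each measured unigene as log2(RPKM + 1) in FL ovule (horizontal axis) and WT fiber (vertical axis), 1 library per group; orange points are the 112 AP2/ERF unigenes, grey points all other measured unigenes, and dashed lines mark 2-fold on this scale. Most AP2/ERF points lie between the dashed lines (79 of 112), and the low members with RPKM as deposited lie mostly on the FL ovule side.

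The highest log2 ratio of the family, toward FL ovule, was found in the AP2 class, in a unigene annotated as AIL6. AIL6 is an AINTEGUMENTA-like protein that acts in young dividing organs and meristems in Arabidopsis. Unigene0139337 had 16.2 RPKM (674 reads) in FL ovule and 0.874 RPKM (31 reads) in WT fiber, a log2 ratio of 3.20 and an 18.6-fold higher level in FL ovule (interval 13.0 to 27.6). Unigene0065113, with the same text, had 8.86 RPKM in FL ovule and 0.832 RPKM in WT fiber, a log2 ratio of 2.43 and a 10.6-fold difference (8.31 to 13.8). The remaining pair with this text was below 1 RPKM in both libraries and pointed the same way: Unigene0065111 had 78 reads in FL ovule and 0 in WT fiber, at least 22.2-fold higher when 0 is set to the floor of 3 reads in that library, and Unigene0065112 had 16 reads in FL ovule and 0 in WT fiber, at least 4.56-fold higher against that floor. The exact intervals, which also count the error of the FL ovule reads, begin lower, at 17.6-fold and 3.30-fold. All 4 AIL6 unigenes thus had more reads in FL ovule, and none reached 1 RPKM in WT fiber. Beside them, most called markers of dividing cells and the embryo transcripts picked above differed in the same direction, while the full embryo list went both ways: a late embryogenesis abundant protein (Unigene0123729) had 0.269 RPKM in FL ovule and 70.5 RPKM in WT fiber. Among the genes that were higher in FL ovule was Cyclin-D3-1 (Unigene0060120), with 17.4 RPKM in FL ovule and 1.96 RPKM in WT fiber. It is a D-type cyclin of the kind known to act beside AINTEGUMENTA in Arabidopsis organ growth, and it had the largest ratio of its list. Of 23 measured D-type cyclins, 6 were at least 2-fold higher, 2 at least 2-fold lower and 15 within 2-fold. With DESeq2 size factors 5 were higher and 3 lower.

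The rest of the AP2 class differed little. SNZ, a repressor of flowering in Arabidopsis, was represented by Unigene0094505 with 4.39 RPKM in FL ovule and 2.76 RPKM in WT fiber and by Unigene0094504 with 2.53 RPKM in FL ovule and 1.98 RPKM in WT fiber. The At1g16060-like Unigene0072480 had 2.35 RPKM in FL ovule and 2.703 RPKM in WT fiber. Of the 5 measured members of the class, 2 were past 2-fold and 3 were within it, and these 5 summed to 34.4 RPKM in FL ovule and 9.15 RPKM in WT fiber; both AIL6 unigenes stayed at least 2-fold higher under all 8 alternative pseudocounts, scalings and centrings.

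Other AP2-type texts, AP2.7, AP2-2 and transcription factor AP2, comprised 12 unigenes of which 3 were measured. AP2.7 isoform 2 (Unigene0072918) had 9.32 RPKM in FL ovule and 3.26 RPKM in WT fiber, 2.86-fold higher (2.32 to 3.55), with a log2 ratio of 1.28 that fell under 1 in 5 of the 8 alternatives. AP2.7 isoform 3 (Unigene0037589) had 92 reads in FL ovule and 2 reads in WT fiber, and 3 more unigenes of this set had no read in WT fiber. Of the 3 measured, 2 thus passed 2-fold toward FL ovule and 1 lay within 2-fold.

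Named ERF and EREBP texts held most of the family's transcript, though not most of its unigenes. The named ERF and EREBP texts comprised 64 unigenes, which together summed to 759 RPKM in FL ovule and 856 RPKM in WT fiber. Of the 48 that were measured, 7 passed 2-fold toward FL ovule, 2 toward WT fiber and 39 were within 2-fold, with a median log2 ratio of 0.21 that was -0.40 with TMM scaling, -0.49 with DESeq2 size factors and -0.41 with a common RPKM sum. The median of all measured unigenes changed sign under the same 3 scalings.

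The most abundant AP2/ERF unigene of both libraries was ERF2 (Unigene0100008), a text from upland cotton itself. It had 244 RPKM (12358 reads) in FL ovule and 328 RPKM (14205 reads) in WT fiber, a ratio of 0.743 (0.726 to 0.762) and a log2 ratio of -0.43 that ranged from -1.14 to -0.07 over the alternatives. It alone held 24.1% of the family's summed RPKM in FL ovule and 31.2% in WT fiber. Without it the sums were 767 RPKM in FL ovule and 721 RPKM in WT fiber. The other 5 unigenes with this text were Unigene0030902 with 43.1 RPKM in FL ovule and 33.9 RPKM in WT fiber, Unigene0070094 with 30.8 RPKM in FL ovule and 27.5 RPKM in WT fiber, and 3 with 3.58 to 24.9 RPKM in FL ovule and 4.45 to 22.9 RPKM in WT fiber. All 6 ERF2 unigenes lay within 2-fold with RPKM as deposited, and the directions of Unigene0030902 and Unigene0070094 turned under 4 of the 8 alternatives.

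Several other cotton ERF texts were also close to level with RPKM as deposited. ERF-1 had 3 measured unigenes summing to 52.7 RPKM in FL ovule and 54.2 RPKM in WT fiber, with log2 ratios of -0.45 to 0.38. The text ethylene-responsive element-binding factor had 5 measured unigenes, with 45.1 RPKM in FL ovule and 52.5 RPKM in WT fiber and log2 ratios of -0.93 to 0.89. The 4 members that the deposited annotation ties to the response to hypoxia, all ERF2 or ethylene response factor 1 texts, summed to 39.2 RPKM in FL ovule and 43.2 RPKM in WT fiber, and none was past 2-fold. CRF texts, named after cytokinin response factors, had 5 measured unigenes within 2-fold, with a sum of 12.3 RPKM in FL ovule and 9.05 RPKM in WT fiber.

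ERF-2, another cotton text, leaned to FL ovule. Unigene0061722 had 50.1 RPKM (4114 reads) in FL ovule and 14.6 RPKM (1027 reads) in WT fiber, 3.42-fold higher (3.20 to 3.67), and stayed past 2-fold under all 8 alternatives. Unigene0061723 had 59.0 RPKM in FL ovule and 31.3 RPKM in WT fiber, 1.88-fold higher (1.78 to 1.996). ERF-2 was thus the abundant ERF text with the largest lean to FL ovule, with a sum of 109 RPKM in FL ovule and 45.9 RPKM in WT fiber. The similarly named ERF2 was near level with RPKM as deposited, at 368 RPKM in FL ovule and 431 RPKM in WT fiber. With DESeq2 size factors the ERF2 sums were 288 RPKM in FL ovule and 551 RPKM in WT fiber. The ERF-2 sums were then 85.2 RPKM in FL ovule and 58.8 RPKM in WT fiber. Reads of near-identical copies can be divided among unigenes of 1 text, so single values within these texts are uncertain in that respect.

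Further ERF unigenes leaned to FL ovule with RPKM as deposited. ERF domain protein 12 (Unigene0043620), whose Arabidopsis namesake carries a repression motif, had 16.0 RPKM in FL ovule and 3.12 RPKM in WT fiber, 5.14-fold higher (4.27 to 6.22). The ethylene-responsive transcription factor 4 unigene (Unigene0066077), named like an Arabidopsis repressor, had 14.5 RPKM in FL ovule and 5.42 RPKM in WT fiber, 2.68-fold higher (2.36 to 3.04), and its log2 ratio of 1.27 fell under 1 in 5 of the 8 alternatives. A 4-like unigene (Unigene0066076) had 14.8 RPKM in FL ovule and 8.73 RPKM in WT fiber. The AP2/EREBP text of cotton had 4 measured unigenes with log2 ratios of 0.86 to 1.54, led by Unigene0070144 with 6.43 RPKM in FL ovule and 1.55 RPKM in WT fiber, 4.14-fold higher (3.21 to 5.41).

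Both measured ERF unigenes of the named texts that were past 2-fold the other way were abundant in WT fiber. Ethylene response factor 11 (Unigene0052096, a text from kiwifruit), whose Arabidopsis namesake is likewise a repressor, had 22.5 RPKM (1607 reads) in FL ovule and 116 RPKM (7072 reads) in WT fiber, where it was the second most abundant member after ERF2. It was 5.15-fold lower in FL ovule (4.88 to 5.44). Ethylene-responsive element binding protein 2 (Unigene0025434, a text from rubber tree) had 1.004 RPKM (26 reads) in FL ovule and 29.97 RPKM (663 reads) in WT fiber, 29.8-fold lower in FL ovule (20.2 to 46.0) and the lowest log2 ratio of the family at -3.95. Both stayed at least 2-fold lower in FL ovule under all 8 alternatives. A cotton text with the same number, ethylene-responsive transcription factor 11, did not share this difference: its 3 measured unigenes had log2 ratios of 0.17 to 1.23, with 12.4 RPKM in FL ovule and 8.14 RPKM in WT fiber.

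**Figure D2:**
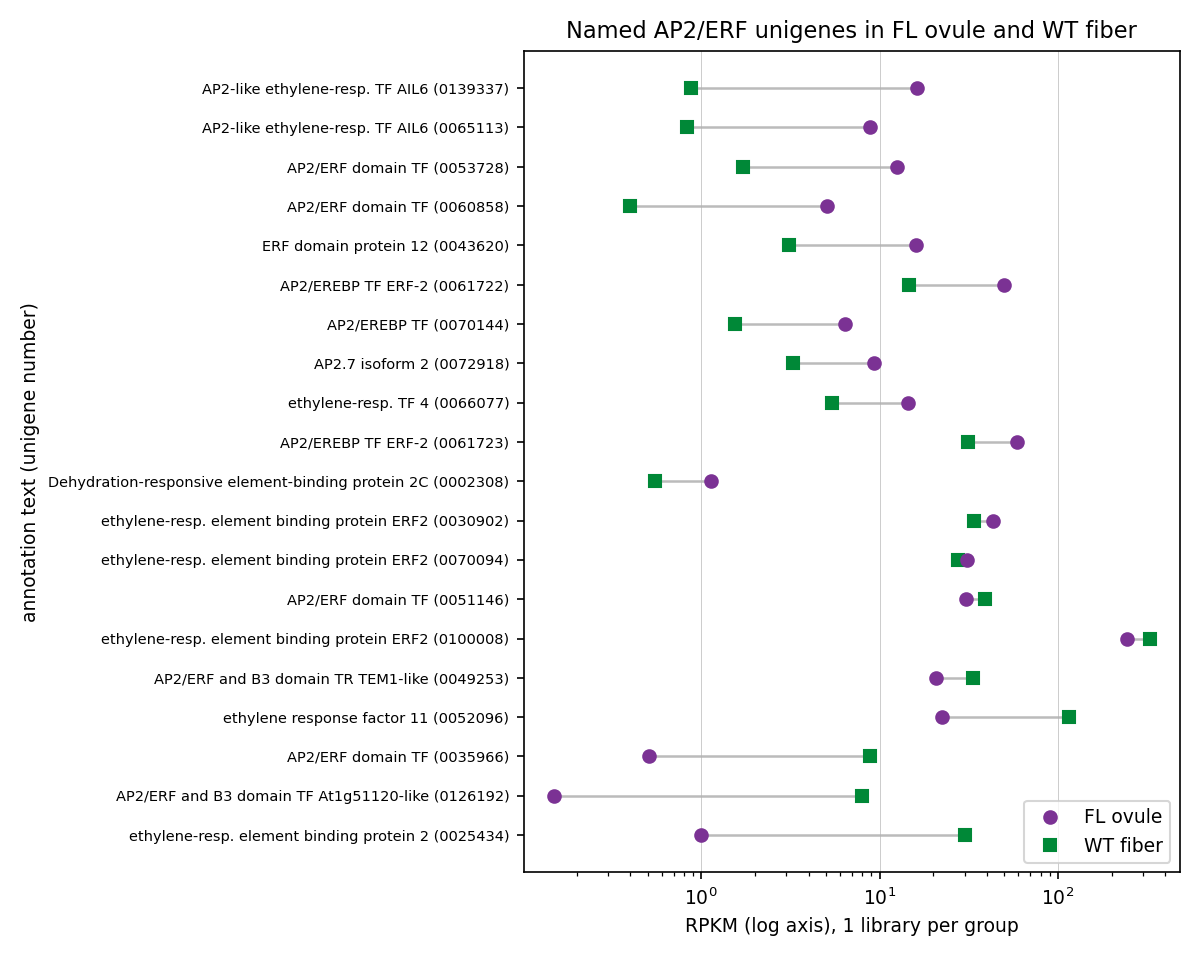
RPKM on a log axis of the 20 AP2/ERF unigenes chosen for size of difference or abundance, in FL ovule (purple circles) and WT fiber (green squares), 1 library per group, ordered by log2 ratio with the highest at the top. The first AIL6 unigene stands at 16.2 in FL ovule and 0.874 in WT fiber, ethylene-responsive element binding protein 2 at 1.004 in FL ovule and 29.97 in WT fiber. ERF2, the most abundant unigene, stands at 244 in FL ovule and 328 in WT fiber.

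Texts that name only the domain went both ways. The generic AP2 and AP2/ERF domain texts comprised 70 unigenes, of which 42 were measured, with 14 at least 2-fold higher and 3 at least 2-fold lower in FL ovule and a median log2 ratio of 0.64 (-0.18 with TMM scaling, -0.21 with DESeq2 size factors, -0.15 with a common RPKM sum and 0.25 when centred). Unigene0053728 had 12.5 RPKM in FL ovule and 1.72 RPKM in WT fiber, 7.25-fold higher (5.70 to 9.33). Unigene0060858 had 5.08 RPKM in FL ovule and 0.397 RPKM in WT fiber, 12.8-fold higher (8.85 to 19.2). Against them, Unigene0035966 had 0.509 RPKM (18 reads) in FL ovule and 8.86 RPKM (268 reads) in WT fiber, 17.4-fold lower in FL ovule (10.8 to 29.9), and the most abundant of these texts, Unigene0051146, had 30.6 RPKM in FL ovule and 39.2 RPKM in WT fiber. All 4 carry 1 text, given to 44 unigenes of which 25 were measured, 7 higher and 2 lower in FL ovule, so that text stands for several genes. Of the 24 texts with several measured members, 3 had members past 2-fold in both directions.

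Texts that join AP2 with a B3 domain, the arrangement of RAV proteins, comprised 15 unigenes with 8 measured. The At1g51120-like Unigene0126192 had 0.149 RPKM (10 reads) in FL ovule and 7.94 RPKM (454 reads) in WT fiber, 53.1-fold lower in FL ovule (28.6 to 112), while Unigene0020489 with the same text had 1.47 RPKM in FL ovule and 0.107 RPKM in WT fiber. The TEM1-like Unigene0049253, named after a repressor of flowering in Arabidopsis, had 20.6 RPKM in FL ovule and 33.5 RPKM in WT fiber, a ratio of 0.613 (0.565 to 0.664). The 2 unigenes of the At1g51120-like text thus went opposite ways.

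DREB texts were scarce. Only 2 unigenes matched and 1 was measured: dehydration-responsive element-binding protein 2C (Unigene0002308) had 1.14 RPKM (17 reads) in FL ovule and 0.548 RPKM (7 reads) in WT fiber, a ratio of 2.08 whose interval of 0.818 to 5.92 includes 1. A difference was not detectable for it at this depth.

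**Figure D3:**
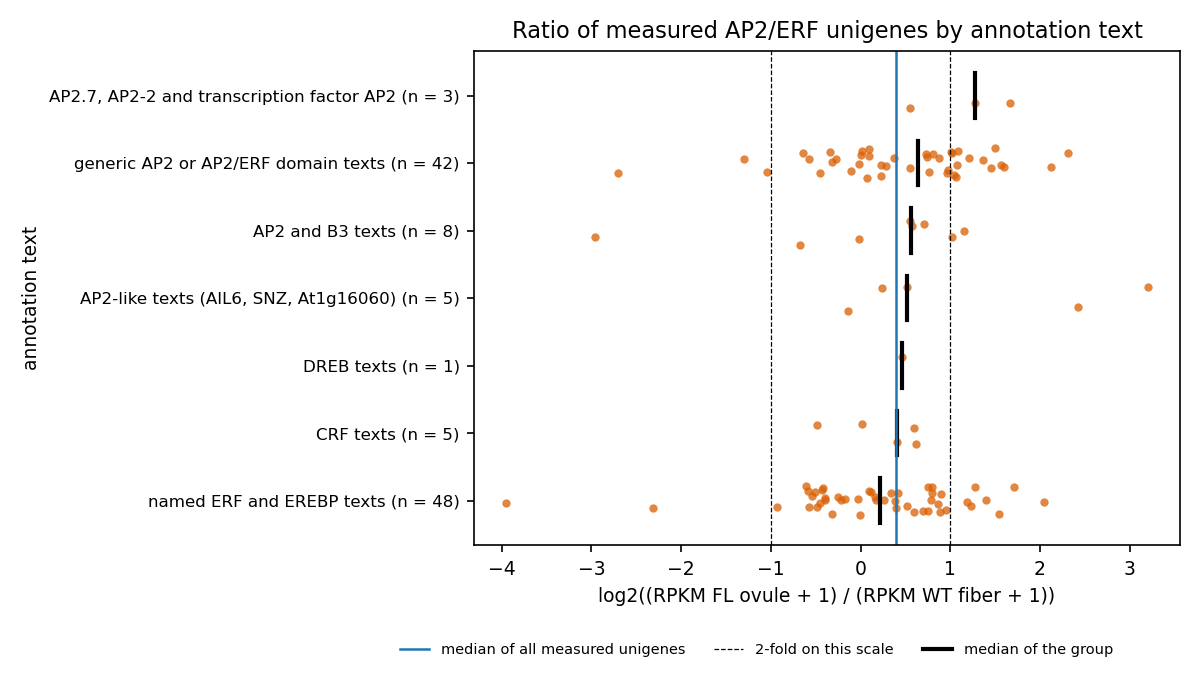
Log2 ratio of each of the 112 measured AP2/ERF unigenes (points), FL ovule over WT fiber with RPKM as deposited, by kind of annotation text, with the median of each kind (black bars), the median of all measured unigenes (blue line, 0.39) and 2-fold (dashed lines). Named ERF texts center at 0.21 and generic domain texts at 0.64, both of which are below 0 with TMM scaling, DESeq2 size factors or a common RPKM sum; AIL6 lies farthest right and ethylene-responsive element binding protein 2 farthest left.

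Below 5 RPKM, 18 further members passed 2-fold toward FL ovule, with 1.22 to 3.51 RPKM in FL ovule and 0 to 1.12 RPKM in WT fiber, and 2 passed it toward WT fiber, with 0.689 to 1.67 RPKM in FL ovule and 3.14 to 4.52 RPKM in WT fiber. Among the 18 were ERF5 (Unigene0070146) with 3.23 RPKM in FL ovule and 0.857 RPKM in WT fiber, and 2 unigenes with no read in WT fiber. Of these, an AP2/ERF domain unigene (Unigene0043483) had 78 reads in FL ovule, at least 22.2-fold higher against a floor of 3 reads in WT fiber, and an AP2 domain class unigene (Unigene0079440) had 35 reads, at least 9.97-fold higher against that floor. Their exact intervals begin at 17.6-fold and 7.69-fold.

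**Figure D4:**
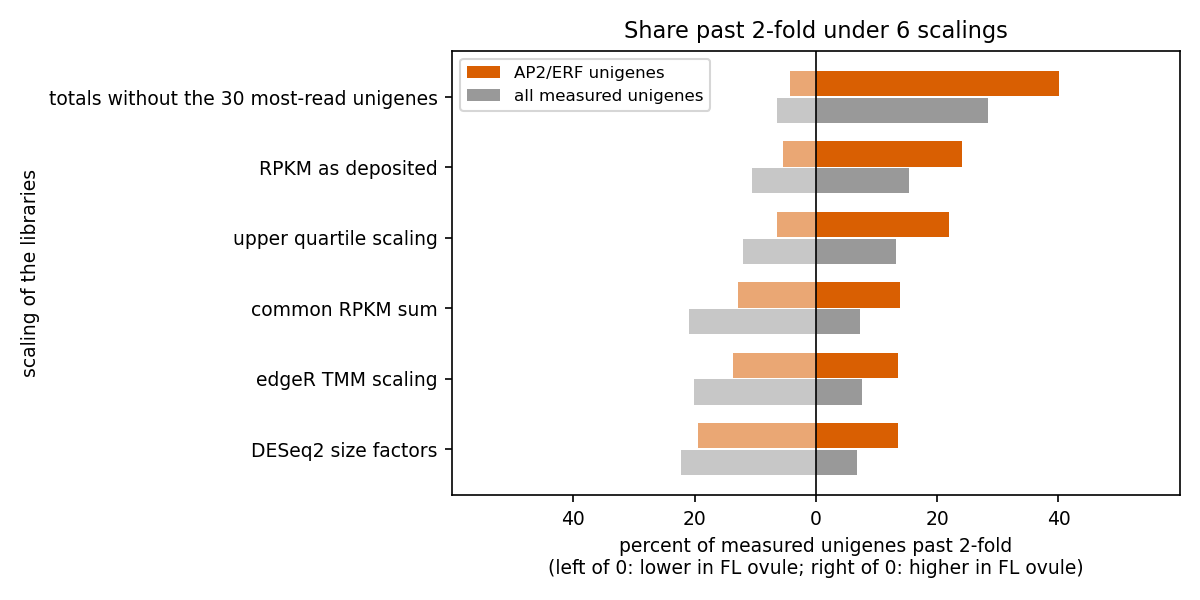
Percent of measured unigenes at least 2-fold higher (right of 0) and at least 2-fold lower (left of 0) in FL ovule, for AP2/ERF unigenes (orange) and all measured unigenes (grey), with the libraries scaled in 6 ways. With RPKM as deposited the AP2/ERF shares are 24.1% higher and 5.36% lower, and with DESeq2 size factors they are 13.6% higher and 19.4% lower; all measured unigenes shift with the scaling too.

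The ethylene pathway that leads to ERF proteins was described from lists of annotation words. Ethylene is made from S-adenosylmethionine by ACC synthase and ACC oxidase, is sensed by receptors that act through the kinase CTR1 and the membrane protein EIN2, and its signal reaches the transcription factor EIN3, which activates ERF genes. EIN3-binding F-box proteins direct EIN3 to degradation.

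In synthesis, S-adenosylmethionine synthetases were at 1345 RPKM in FL ovule and 1399 RPKM in WT fiber in sum, with 2 of 8 measured unigenes at least 2-fold higher and 1 at least 2-fold lower in FL ovule. ACC synthases were higher in 5 of 12 and lower in 1, with sums of 53.9 RPKM in FL ovule and 37.0 RPKM in WT fiber; with DESeq2 size factors the sums were 42.1 RPKM in FL ovule and 47.3 RPKM in WT fiber, and when centred on the median of all measured unigenes 0 were higher and 1 was lower. ACC synthase 10 (Unigene0087791), the most abundant, had 17.5 RPKM in FL ovule and 7.27 RPKM in WT fiber. ACC oxidases and their homologs were higher in 4 of 20 and lower in 1, with sums of 318 RPKM in FL ovule and 169 RPKM in WT fiber. ACC oxidase 1 (Unigene0057469) had 122 RPKM in FL ovule and 42.3 RPKM in WT fiber, and ACC oxidase 2 (Unigene0006349) had 51.9 RPKM in FL ovule and 7.50 RPKM in WT fiber. The summed ACC oxidase level was higher in FL ovule under each scaling, though only 1 unigene stayed at least 2-fold higher with TMM scaling, DESeq2 size factors or a common RPKM sum.

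In signalling, EIN3 and EIN3-like unigenes were near level in sum, with 211 RPKM in FL ovule and 194 RPKM in WT fiber. None of 19 measured passed 2-fold on the log2 scale with its pseudocount of 1. By ratio of RPKM without a pseudocount, some low unigenes did, in both directions. Unigene0080027 was 4.52-fold and Unigene0080220 2.87-fold higher in FL ovule, and Unigene0069571 was 2.34-fold lower. Their intervals begin at 1.99-fold, 1.93-fold and 1.29-fold. With TMM scaling, DESeq2 size factors or a common RPKM sum, the EIN3 sum in WT fiber was the larger. Under these scalings 1 EIN3 unigene was at least 2-fold lower in FL ovule. The F-box regulators of EIN3 were not level. Of 14 measured EIN3-binding F-box unigenes, 8 passed 2-fold toward FL ovule and none toward WT fiber. Their sums were 356 RPKM in FL ovule and 130 RPKM in WT fiber. EIN3-binding F-box protein 1 (Unigene0054067) had 57.6 RPKM in FL ovule and 7.41 RPKM in WT fiber, 7.77-fold higher (6.79 to 8.93). Under TMM scaling, DESeq2 size factors and a common RPKM sum 5 of 13 were still higher and 1 was lower. Receptors were higher in 2 of 12 and lower in 2, and CTR1 and EIN2 unigenes higher in 2 of 20 and lower in none, with CTR1 and EIN2 sums of 184 RPKM in FL ovule and 176 RPKM in WT fiber; with DESeq2 size factors 0 of these were higher and 3 lower, with sums of 144 RPKM in FL ovule and 226 RPKM in WT fiber. The whole ethylene signalling list had 12 of 65 higher and 2 lower in FL ovule, and the synthesis list 11 of 40 higher and 3 lower; with DESeq2 size factors these counts were 6 and 9, and 2 and 4.

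**Figure D5:**
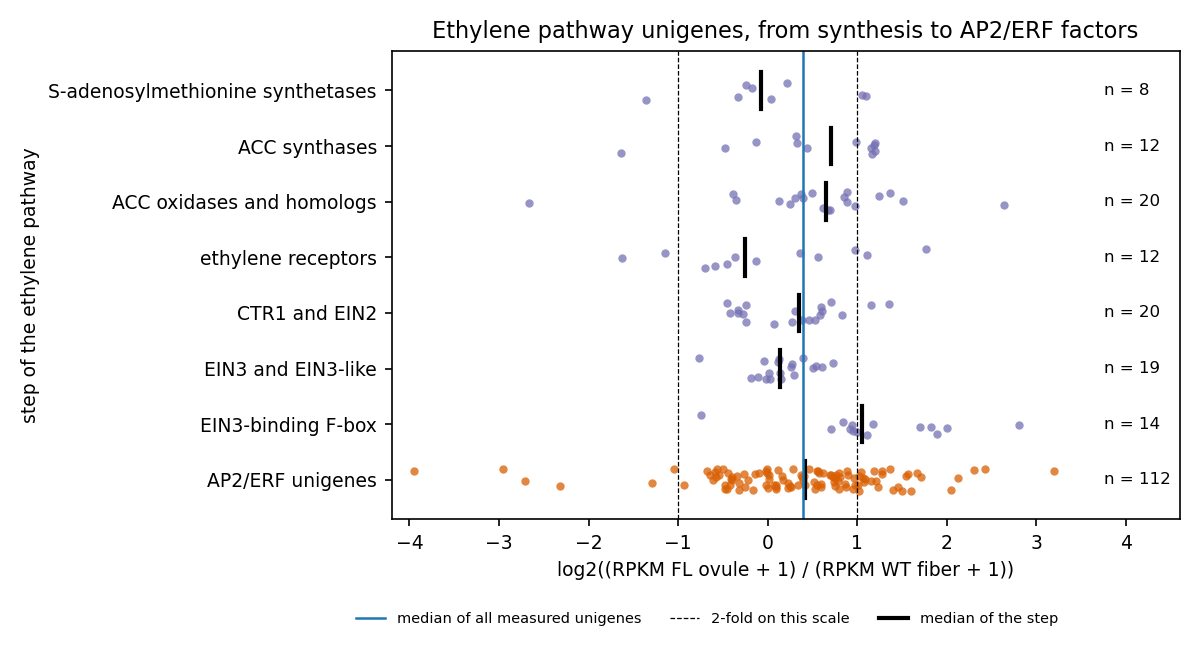
Log2 ratio of measured unigenes (points), FL ovule over WT fiber with RPKM as deposited, for steps of the ethylene pathway from synthesis at the top to the AP2/ERF factors at the bottom, with the median of each step (black bars) and of all measured unigenes (blue line). EIN3-binding F-box unigenes center at 1.06 and EIN3 unigenes at 0.14; the F-box median stays above 0 under all scalings, and the EIN3 median is below 0 with TMM scaling, DESeq2 size factors or a common RPKM sum.

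Genes of the classes that ERF and DREB proteins are known to control, and D-type cyclins, went in both directions. Defence genes (chitinases, osmotins, thaumatins, pathogenesis-related proteins and beta-1,3-glucanases) had 24 of 64 measured unigenes past 2-fold toward FL ovule and 12 toward WT fiber, with sums of 1829 RPKM in FL ovule and 1848 RPKM in WT fiber; with TMM scaling 17 were higher and 17 lower. Their most abundant member, a class VII chitinase (Unigene0066179), had 424 RPKM in FL ovule and 526 RPKM in WT fiber. Drought and cold genes were higher in 5 of 28 cases and lower in 11, with sums of 577 RPKM in FL ovule and 1724 RPKM in WT fiber; when library totals omitted the 30 most-read unigenes, 10 were higher and 10 lower. A KS-type dehydrin (Unigene0146142), of a protein class made under water deficit, had 80.6 RPKM in FL ovule and 839 RPKM in WT fiber and held the largest share of the list in WT fiber. D-type cyclins were higher in 6 of 23 cases and lower in 2, with sums of 75.9 RPKM in FL ovule and 44.9 RPKM in WT fiber, and 4 and 3 when centred.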

How the data were processed

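Total RNA of 2 samples was sequenced, 1 library each. Per the labels' protocols RNA was divided into an oligo-dT and a ribosomal-RNA-depleted portion; which portion gave the deposited values is not stated. Each deposited count is a whole number of unique reads on a unigene, from which the authors made the deposited RPKM, per the file headers; recomputing RPKM from count, length and header total gave the same values (relative error up to 2.4e-14). The submitters' processing notes name Bowtie and Bowtie2. For the assembler, annotation source, genome build and strand nothing is given in the sources used here; unigenes carry no positions or sequences.

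Tables were joined by unigene, a missing unigene counting as 0 reads. Members, gene lists and markers were chosen with earlier results of these data known. Members at 5 RPKM or more were named by rule: the 12 largest log2 ratios each way if past 2-fold, the 6 most abundant of each library, and the most abundant of each class and pathway list; members sharing a text with these, and a few others chosen after their values were seen, stand beside them. Classes followed the annotation text. Alternatives changed the pseudocount (0.1, 5), filter (none, 5 RPKM), fold (4), scaling (edgeR 4.0.16 TMM, DESeq2 1.42.0 size factors, totals without the 30 most-read unigenes, common RPKM sum, upper quartile), length (500 bases or more) and 1 unigene per text. Alternatives added after seeing the data took all rule matches, added proteins named in other words, dropped B3 texts or centred the ratios. Ratios and intervals were tested on simulated data (Python 3.11.15, NumPy 2.4.6, SciPy 1.17.1). Intervals and floors cover counting error only, and with 1 library per group they hold no spread between samples. The intervals also treat reads as independent, although reads that carry no molecular identifiers are not.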

Additional observations from a re-analysis of the deposited data

How the results depend on the processing

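The ERF class of this section took in generic AP2/ERF domain texts and AP2/ERF and B3 texts beside named ERF texts. AP2/EREBP texts without an ERF number counted as other AP2 domain texts. Counts below given as ERF are of this class, while named ERF and EREBP texts alone had 7 higher and 2 lower. With RPKM as deposited, 27 members were higher and 6 lower in FL ovule by 2-fold. Of these, 14 and 6 were in the ERF class, 2 and 0 in the AP2 class and 11 and 0 in the other AP2 domain texts. Under 16 alternatives, 4 of them chosen after seeing the data, these moved as follows; no alternative turned a named member that was past 2-fold, and 9 of those 13 stayed past it under all 8 alternatives that apply to single unigenes. With a pseudocount of 0.1, 45 members, 26 ERF and 17 other texts were higher. With a pseudocount of 5 these counts were 5, 3 and 0 and the median of the other texts was 0.29. With a 4-fold threshold they were 5, 3 and 0. At 5 RPKM or more they were 9, 5 and 2, the ERF median was -0.02 and the AP2 class median 2.81. With TMM scaling 14 members were higher and 14 lower (median -0.21), 6 and 13 ERF (-0.35) and 6 and 1 other texts, with a summed ratio of 0.63. With DESeq2 size factors 14 were higher and 20 lower (-0.28), 6 and 18 ERF (-0.39) and 6 and 2 other texts, with an AP2 class median of -0.03 and a summed ratio of 0.59. With a common RPKM sum 14 were higher and 13 lower (-0.21), 6 and 12 ERF (-0.33) and 6 and 1 other texts, with a summed ratio of 0.62. When totals left out the 30 most-read unigenes, 57 members, 35 ERF and 19 other texts were higher. With centred ratios 13 members were higher and 10 lower, 5 ERF were higher (median -0.15), and 6 other texts were higher and 1 lower. With 1 unigene per text, 9 of 48 measured members were higher (18.8%, beside 15.3% of all measured unigenes) and 4 lower (8.33%, beside 10.5%). The median of these members was 0.13, beside 0.39 for all measured unigenes. Of the higher ones, 3 were ERF (median -0.14), 1 AP2 class and 5 other texts. At 500 bases or more 9 ERF were higher. Over all rule matches 3 other texts were lower. With proteins named in other words 48 members were higher and 13 lower, 29 and 13 ERF, and 5 AP2 class were higher with a median of 2.06. The median of all measured unigenes shifted with the scalings too, and the cause of the shifts was not tested. No paired analysis was possible because each group has 1 library, and no library could be left out. Depth limits members with few reads, such as DREB2C.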

Other observations

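Some AP2/ERF proteins carry annotation texts that the search words did not reach. These 82 unigenes (texts of integrase-type DNA-binding proteins, DREB1, numbered ERFs, RAV and Wrinkled1) had 56 measured, with 21 at least 2-fold higher and 7 at least 2-fold lower in FL ovule, sums of 198 RPKM in FL ovule and 125 RPKM in WT fiber, and a median log2 ratio of 0.78 (0.10 with DESeq2 size factors). When centred on the median of all measured unigenes, 7 were higher and 9 were lower. Wrinkled1, an AP2-class activator of fatty acid synthesis in Arabidopsis seeds, was higher in FL ovule in all 3 measured unigenes under every scaling and with centring. Unigene0078197 had 16.1 RPKM in FL ovule and 3.09 RPKM in WT fiber, 5.20-fold higher (95% counting interval 4.44 to 6.13), Unigene0078198 had 14.4 RPKM in FL ovule and 2.703 RPKM in WT fiber, and Unigene0140043 had 7.72 RPKM in FL ovule and 0.505 RPKM in WT fiber. Oleosin 1 (Unigene0051093), a coat protein of seed oil bodies, differed the same way with 26.1 RPKM in FL ovule and 1.33 RPKM in WT fiber. Oleosin texts went both ways, and an oleosin family unigene (Unigene0035516) had 7.02 RPKM in FL ovule and 36.1 RPKM in WT fiber. The part of embryo tissue in these differences was not tested.

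DREB1C, a cold-response regulator in Arabidopsis, had 7 measured unigenes that lay within 2-fold with RPKM as deposited and summed to 39.4 RPKM in FL ovule and 24.9 RPKM in WT fiber, a direction that turned with DESeq2 size factors; 3 were at least 2-fold higher with totals without the 30 most-read unigenes. Both RAV unigenes of upland cotton past 2-fold were higher in FL ovule, Unigene0043316 with 5.50 RPKM in FL ovule and 1.58 RPKM in WT fiber and Unigene0043315 with 4.27 RPKM in FL ovule and 1.49 RPKM in WT fiber. Integrase-type texts went both ways: Unigene0104619 had 11.6 RPKM in FL ovule and 0.995 RPKM in WT fiber, and Unigene0057987 had 1.70 RPKM in FL ovule and 21.8 RPKM in WT fiber. These unigenes were chosen after their values were seen.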
